A study of Mus musculus with 8 samples.

Results

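The comparison described here asks how the effect of losing Deaf1 on the pancreatic lymph node differed between mice of 12 and of 4 weeks. Its members are the autosomal genes whose knockout over wild-type log2 ratios did not overlap between the 3 arrays of 12 weeks and the 2 arrays of 4 weeks. The rule found 6637 members among the 17688 autosomal genes tested, of 18410 genes tested in all. The ratios of 2889 members were higher on all arrays of 12 weeks and those of 3748 were lower. Because the same ratios chose the members, their number is a description, and the tests reported are those of a fit over all genes. At the edge of the rule, Ttc26, Rraga and Sgsm1 were just inside, with gaps between the ages of 3.13e-05, 5.82e-05 and 0.000101 on the log2 scale. Adamts18, Anks1 and Gapvd1 were just outside.

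Each array held the node of a Deaf1 knockout mouse of the BALB/c strain, labelled with Cy5, beside wild-type littermates of the same age, strain and tissue, labelled with Cy3. The wild-type RNA was a pool of 2 mice at 4 weeks and of 3 mice at 12 and at 30 weeks. There were 2 knockout arrays at 4 weeks, 3 at 12 weeks and 3 at 30 weeks, the last used for the spread and as an age that the rule did not touch. All mice were bred in 1 facility free of pathogens, and 1 µg of total RNA was amplified for each sample. A positive log2 ratio means more signal in the knockout, and the difference is always the ratio at 12 weeks minus the ratio at 4 weeks. No array had the dyes swapped, but a dye bias that stays the same for a probe cancels in this difference.

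Deaf1 is a transcription factor with a SAND domain, which binds DNA containing TTCG, and a MYND domain, through which it meets other proteins. It resembles Aire, which drives the display of tissue antigens in the thymus, and Deaf1 has been linked to the display of such antigens by stromal cells of the pancreatic lymph node. Lymph node stroma comprises fibroblastic reticular cells, which build the fibre network and secrete chemokines, and the endothelium of lymphatics and blood vessels. These cells are far fewer than lymphocytes, so in a whole node fewer cells of a type and less RNA per cell cannot be told apart.

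The age comparison was tied to other differences between the arrays. Both arrays of 4 weeks were on slide 1 and were read with scanner 1. All arrays of 12 weeks were on slide 2, with scanner 2 and a later version of the scanner software, so age cannot be told apart from slide, scanner, software or wild-type pool. Genes of the sex chromosomes also differed: Ddx3y, Eif2s3y and Kdm5d, all on the Y chromosome, gave wild-type signals clearly above background at 12 weeks, and at 4 weeks they were not in either channel. The second array of 12 weeks stood apart, with an Xist ratio of 5.32 and an Eif2s3y ratio of -4.86 against that pool, whereas the other arrays of 12 weeks lay between -0.40 and 0.33 for Xist. The wild-type level of Xist, on the log2 scale, was 12.422 and 13.068 at 4 weeks and between 7.547 and 7.708 at 12 weeks. The labels give no sex, and age cannot be told apart from these sex-linked differences either. Their part in the autosomal results was not tested. Because the second array of 12 weeks stood apart, results are also given without it. Leaving it out does not separate age from these differences. The other arrays of 12 weeks had Ddx3y, Eif2s3y and Kdm5d above background in both channels. Between 37.2% and 71.4% of probes were well above background in a channel, the lowest on the second array of 4 weeks.

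A gene is said to have risen or fallen, or to be called, where its ratio differed between the ages with an adjusted p under 0.05 (limma, Benjamini-Hochberg over all genes tested). The targeted gene itself does not check the genotype here. Deaf1 was read with a probe at chr7:141152927-141152986 in the mm8 build, and the labels do not say which part of the gene was deleted. Its ratio was -0.22 and -0.12 on the arrays of 4 weeks and 0.34, 0.35 and 0.32 on those of 12 weeks, with no overlap, and it was 0.14, 0.0047 and 0.15 at 30 weeks. The knockout channel was not lower than the wild-type pool at 12 weeks. The ratio rose by 0.51 ± 0.093 (SE, adjusted p = 0.0202 by limma), and a second Deaf1 probe gave a difference of 0.34 ± 0.96. Rplp2, a ribosomal protein gene on the same chromosome, rose by 0.46 ± 0.094 (adjusted p = 0.0279). A list of chromosome 7 genes held Deaf1 itself and its neighbours. Of its 28 tested genes only these 2 rose (1.39% of all autosomal genes did), so Rplp2 was the only neighbour to rise. None fell, and the median difference was 0.072, against -0.018 over all autosomal genes. The median ratio of this list was -0.20 at 4 weeks and -0.085 at 12 weeks.

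Aire was lower in the knockout on all 5 arrays, at -0.19 and -0.32 at 4 weeks and -0.39, -0.69 and -0.45 at 12 weeks. Its difference of -0.26 ± 0.16 did not pass (adjusted p = 0.389). Eif4g3, the gene of a translation initiation scaffold, was at -0.95 and -0.99 at 4 weeks and at -1.39, -1.39 and -1.27 at 12 weeks. Its ratios did not overlap between the ages, and the knockout was below the pool on every array. The difference of -0.38 ± 0.12 did not pass (adjusted p = 0.0883), while the ratio itself passed against equality at 4 weeks (adjusted p = 0.000517) and at 12 weeks (0.000383).

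Over all autosomal genes, the fit called 1217 genes with a different ratio at 12 weeks than at 4 weeks, 6.88% of those tested. The ratio fell in 972 genes (5.5%) and rose in 245 (1.39%). The difference was larger than 1 on the log2 scale in 112 of the genes that fell and in 20 of those that rose. Most of these genes had been away from equality at 4 weeks and were near it at 12 weeks. In the genes that fell, the median ratio was 0.75 and 0.64 on the 2 arrays of 4 weeks and 0.035, 0.0080 and -0.038 on the 3 arrays of 12 weeks. In those that rose, it was -0.51 and -0.38 at 4 weeks and 0.18, 0.10 and 0.14 at 12 weeks. Over all autosomal genes the array medians lay between 0.012 and 0.026.

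Tested against equality at each age, 863 of the 972 genes that fell passed at 4 weeks and not at 12 weeks, 43 at 12 weeks and not at 4 weeks, 29 at both ages and 37 at neither. Of the 245 genes that rose, 188 passed only at 4 weeks, 19 only at 12 weeks, 10 at both and 28 at neither. Among all autosomal genes, 22.5% passed at 4 weeks and 2.61% at 12 weeks. The ratio passed at both ages with opposite sign in 24 called genes.

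**Figure D1:**
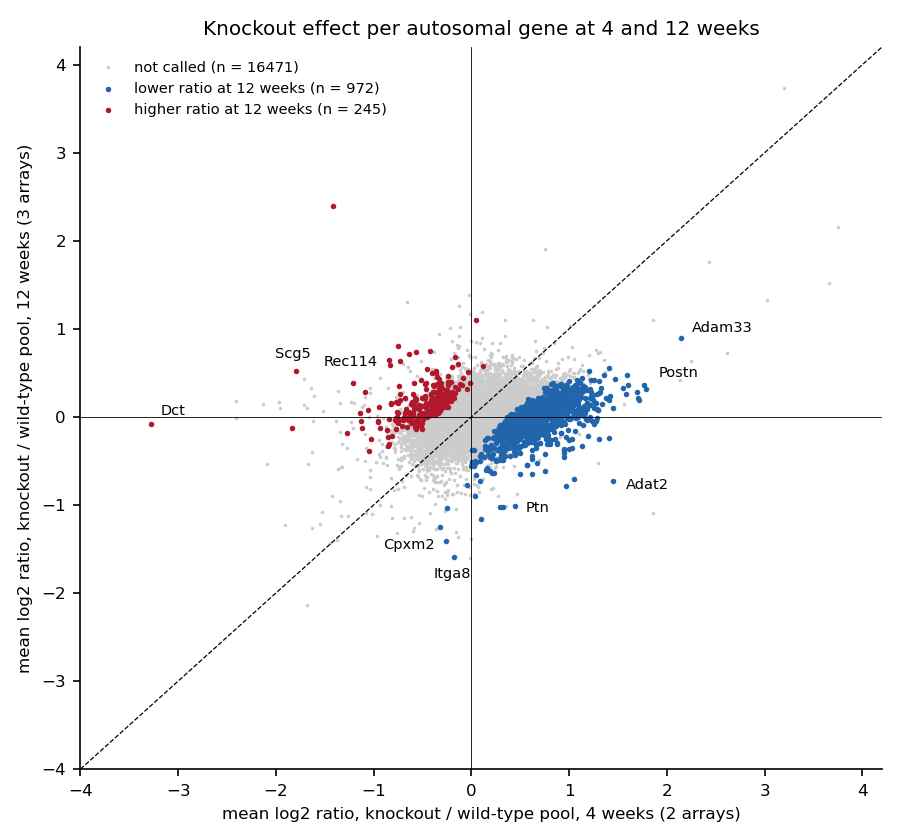
Mean log2 ratio of knockout over wild-type pool at 4 weeks (horizontal axis, 2 arrays) and at 12 weeks (vertical axis, 3 arrays) for each autosomal gene tested. The dashed line marks equal ratios. The 972 genes in blue spread to the right of 0 at 4 weeks and lie near 0 at 12 weeks, and the 245 in red lie mostly to the left of 0 at 4 weeks. The isolated red point near the top is a transcript named only by an accession, which the rule for named genes left out.

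These counts rested heavily on single arrays and on the normalization. Without the first array of 4 weeks, 1 gene rose and 0 fell at the same threshold, although 2275 autosomal genes had an unadjusted p under 0.05, against 4055 with all arrays. No member of any gene list was called there. The 80 named genes with a call all kept their direction there. That was fixed in advance, because no called autosomal gene had ratios that overlapped between the ages, and so it lends the calls no support. Without the second array of 12 weeks, 536 genes rose and 1156 fell, and 76 of the 80 named calls held. With the scanner software's own log ratio, 775 rose and 1255 fell, so that 38.2% of the called genes rose in place of 20.1%. With arrays only centred on their median, 2 rose and 39 fell, or 4.88% rising, and 12 of the 80 named calls held.

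**Figure D2:**
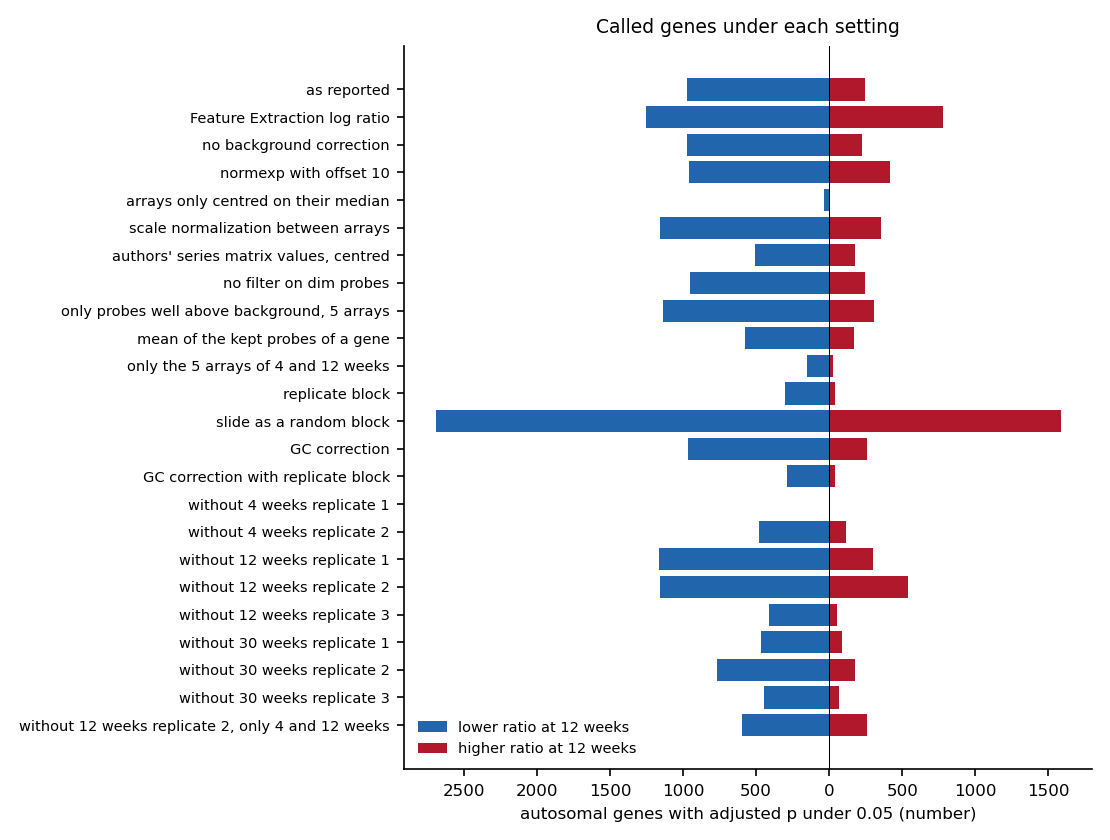
Number of autosomal genes called (horizontal axis) with a lower ratio at 12 weeks, to the left of 0, and with a higher ratio, to the right, as reported and under each alternative, one per line. The counts fall from 972 and 245 to 0 and 1 without the first array of 4 weeks and to 39 and 2 when arrays are only centred on their median.

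Before the members' values, 5 promoter windows are printed, because Deaf1 binds DNA with TTCG and these genes open the results that follow. They are the start regions of the largest fall (Adat2), of the stromal gene Postn, of the largest rise measured in both channels (Scg5) and of a pair of histone genes that changed sign. Each window holds the 250 bases before the start that RefSeq lists first, in GRCm38.p6, read 5′ to 3′ on the gene's strand, with TTCG in capitals and its complement CGAA searched too.
Adat2 (chr10:13552657-13552906, plus strand): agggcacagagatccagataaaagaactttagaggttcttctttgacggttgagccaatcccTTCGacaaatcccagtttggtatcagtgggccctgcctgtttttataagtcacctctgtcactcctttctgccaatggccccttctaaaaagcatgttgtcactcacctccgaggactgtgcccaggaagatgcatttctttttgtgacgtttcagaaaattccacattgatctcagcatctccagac
Postn (chr3:54359017-54359266, plus strand): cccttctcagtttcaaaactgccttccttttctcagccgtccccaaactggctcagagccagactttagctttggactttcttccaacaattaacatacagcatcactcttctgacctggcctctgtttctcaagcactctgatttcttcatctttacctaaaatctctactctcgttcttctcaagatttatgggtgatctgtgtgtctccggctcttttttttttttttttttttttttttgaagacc
Scg5 (chr2:113829092-113829341, minus strand): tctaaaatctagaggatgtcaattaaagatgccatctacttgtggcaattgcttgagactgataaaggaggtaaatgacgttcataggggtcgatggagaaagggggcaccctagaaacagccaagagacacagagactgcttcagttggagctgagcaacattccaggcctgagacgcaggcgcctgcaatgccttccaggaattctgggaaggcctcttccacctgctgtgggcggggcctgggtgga
H4c4 (chr13:23581318-23581567, plus strand): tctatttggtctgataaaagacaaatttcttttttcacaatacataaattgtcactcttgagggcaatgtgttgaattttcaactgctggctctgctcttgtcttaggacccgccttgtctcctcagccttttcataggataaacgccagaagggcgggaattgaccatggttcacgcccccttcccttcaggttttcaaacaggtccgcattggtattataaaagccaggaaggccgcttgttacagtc
H1f4 (chr13:23622559-23622808, minus strand): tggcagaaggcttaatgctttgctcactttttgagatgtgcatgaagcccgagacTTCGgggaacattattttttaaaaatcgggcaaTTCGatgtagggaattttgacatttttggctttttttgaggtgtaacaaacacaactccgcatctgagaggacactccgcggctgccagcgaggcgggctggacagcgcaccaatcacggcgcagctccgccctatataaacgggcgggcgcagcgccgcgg
The window of Adat2 holds 1 copy of the motif, that of H1f4 holds 2, and the other 3 windows hold 0. Over the 11361 autosomal genes tested that had a window in RefSeq, 50.4% held TTCG or CGAA. The share was 54.2% of 712 windows of genes that fell and 56.2% of 169 windows of genes that rose, and the median GC content of the windows was 58.8%, 59.6% and 58%.

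Of the 19 tested markers of fibroblastic reticular cells, 6 fell and none rose: Postn, Cxcl13, Dcn, Lum, Pdgfra and Cxcl12. Over all autosomal genes 5.5% fell. The list's median difference was -0.17, against -0.018 over all autosomal genes. Its median ratio was 0.35 and 0.13 on the arrays of 4 weeks and -0.064, -0.12 and 0.13 on those of 12 weeks. The list as a whole thus touched between the ages. Its 6 called members did not, as was the case for every called autosomal gene. Without the second array of 12 weeks 5 members fell, and with arrays only centred on their median 1. Without the first array of 4 weeks 0 fell and the median difference was -0.077.

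Postn encodes periostin, a matrix protein secreted by fibroblasts. Its ratio was 1.84 and 1.74 at 4 weeks and 0.23, 0.48 and 0.22 at 12 weeks. All arrays of 4 weeks were far above those of 12 weeks, and at 30 weeks it was 0.10, -0.11 and 0.072. The ratio fell by 1.48 ± 0.12 (adjusted p = 0.0048), read with a probe at chr3:54478490-54478549 in mm8. Between the ages the wild-type channel of Postn was higher at 12 weeks by 1.25 on the log2 scale, and the knockout channel differed by -0.23.

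Dcn and Lum encode decorin and lumican, small proteoglycans that bind collagen fibrils. The Dcn ratio was 1.61 and 1.05 at 4 weeks and -0.10, 0.17 and 0.35 at 12 weeks and fell by 1.19 ± 0.20 (adjusted p = 0.0161). A second Dcn probe gave a difference of -0.13 with overlapping ratios. Lum went from 1.46 and 1.25 to 0.32, 0.70 and 0.39 and fell by 0.88 ± 0.15 (adjusted p = 0.0157). For both genes the knockout stayed above the pool on most arrays of 12 weeks, but by less than at 4 weeks.

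Cxcl13, the chemokine that draws B cells into follicles, had ratios of 1.17 and 0.72 at 4 weeks and of -0.19, -1.15 and -0.039 at 12 weeks. It fell by 1.41 ± 0.30 (adjusted p = 0.0326), and the second array of 12 weeks was the lowest. Cxcl12, a chemokine that retains lymphoid cells, fell by 0.67 ± 0.14 (adjusted p = 0.037) with only 2 usable arrays at 12 weeks, since its spot on the first was left out as an outlier. Pdgfra, the receptor for platelet-derived growth factor on mesenchymal cells, fell by 0.86 ± 0.19 (adjusted p = 0.037).

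Among 41 tested genes of collagens and matrix proteins, 36 were not called, 5 fell and none rose, against 5.5% falling and 1.39% rising over all autosomal genes. The list's median difference was -0.29. Nid1, which links laminin to collagen in basement membranes, was at 0.93 and 1.04 at 4 weeks and at 0.50, -0.19 and -0.0038 at 12 weeks and fell by 0.89 ± 0.19 (adjusted p = 0.0319). Col4a1 and Col4a2, the main chains of basement membrane collagen, fell by 0.44 ± 0.095 and 0.41 ± 0.094, and Ogn, a small proteoglycan, by 0.89 ± 0.20. Col3a1, a fibrillar collagen of the reticular network, fell by 0.99 ± 0.23 (adjusted p = 0.040). Without the second array of 12 weeks 7 members of this list fell and 1 rose, and without the first array of 4 weeks none passed.

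Among 23 tested matrix proteases and inhibitors, 3 fell and none rose, against 5.5% and 1.39% over all autosomal genes, with a median difference of -0.092. The counts were 4 falls and 3 rises without the second array of 12 weeks. Adam33, a membrane-bound metalloprotease of mesenchymal cells, had ratios of 2.39 and 1.90 at 4 weeks and of 1.09, 0.83 and 0.76 at 12 weeks. Its wild-type spots were not well above background at 4 weeks. There the means of the 2 arrays put the knockout 4.43-fold higher, which is no minimum, since the second array alone had a ratio of 1.90. The value by which Adam33 fell in the fit, 1.25 ± 0.16 (adjusted p = 0.00717), is no bound either. Its other 2 probes had mean ratios of 0.12 and 0.27 at 4 weeks and gave differences of -0.205 and -0.14. The fold value of 4.43 sets the bright channel's mean against the higher of the dim spots' own signal and the lowest signal well above background on each array. Cpxm2, a carboxypeptidase-like protein, moved away from equality instead: it was -0.42 and -0.11 at 4 weeks and -1.23, -1.65 and -1.34 at 12 weeks and fell by 1.15 ± 0.19 (adjusted p = 0.0149). Mmp8, the collagenase of neutrophils, fell by 1.03 ± 0.24 (adjusted p = 0.043).

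Of 11 tested lymphatic endothelial genes, 8 were not called, 3 fell and none rose, against 5.5% falling over all autosomal genes. The list's median difference was -0.39, and without the second array of 12 weeks 2 fell. Lyve1, a hyaluronan receptor of lymphatic vessels and some macrophages, had ratios of 1.73 and 1.69 at 4 weeks and of 0.80, -0.067 and -0.15 at 12 weeks. It fell by 1.52 ± 0.27 (adjusted p = 0.0197), but a second Lyve1 probe gave -0.27 with overlapping ratios. Prox1, the transcription factor that sets lymphatic identity, was at 0.70 and 0.76 at 4 weeks and at 0.32, -0.15 and 0.12 at 12 weeks. It fell by 0.63 ± 0.15 (adjusted p = 0.0464), while its other 2 probes gave -0.10 and 0.089. Nrp2, a co-receptor for lymphatic growth factors, fell by 0.84 ± 0.15 (adjusted p = 0.017).

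Splicing factors held the largest number of calls of any list fixed for this comparison. Of 34 tested, 15 fell and none rose, against 5.5% falling over all autosomal genes, and the list's median difference was -0.59. The median ratio was 0.63 and 0.48 on the arrays of 4 weeks and 0.16, -0.061 and 0.078 on those of 12 weeks. The count was 15 without the second array of 12 weeks, 5 with the 5 arrays of 4 and 12 weeks alone, and 0 both without the first array of 4 weeks and with arrays only centred on their median, where the list's median difference was -0.57 and -0.77. The median GC content of the probes was 40% for this list and 43.3% for all autosomal genes, and removing a GC trend from each array left 15 falls.

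Srsf11, a serine and arginine-rich splicing protein, had ratios of 1.59 and 1.56 at 4 weeks and of 0.54, 0.14 and 0.090 at 12 weeks. It fell by 1.32 ± 0.15 (adjusted p = 0.00613), while its other 2 probes gave -0.23 and 0.19. Hnrnpa3, which binds nascent transcripts, went from 1.67 and 1.16 to 0.26, 0.21 and 0.11 and fell by 1.22 ± 0.15 (adjusted p = 0.00645), with 3 further probes at -0.97, -0.20 and -1.20. Hnrnpu, a scaffold protein of chromatin and RNA, was at 0.77 on both arrays of 4 weeks and at -0.13, -0.070 and -0.34 at 12 weeks and fell by 0.95 ± 0.11 (adjusted p = 0.00615). Hnrnph1 fell by 0.73 ± 0.092. The kinases Clk1 and Clk4, which phosphorylate splicing factors, fell by 1.04 and 0.85, and Luc7l3 by 1.05. In these 7 genes the knockout was above the pool at 4 weeks.

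Translation initiation genes showed 6 falls and no rise among 37 tested, against 5.5% falling over all autosomal genes, with a median difference of -0.096. Eif5b, which joins the ribosomal subunits, was at 1.08 and 0.78 at 4 weeks and at -0.053, 0.024 and 0.062 at 12 weeks. It fell by 0.92 ± 0.11 (adjusted p = 0.00615), and all 4 of its other probes had the same sign. Eif3a, the largest eIF3 subunit, fell by 0.64 ± 0.099, Eif2s1 and Eif2s2, subunits of the factor that brings the initiator tRNA, by 0.78 ± 0.13 and 0.75 ± 0.13, Eif1a by 0.80 and Eif3j1 by 0.78. A second Eif2s1 probe gave a difference of 0.047, and the other 2 of Eif2s2 gave -0.38 and 0.072. Of 52 cytosolic ribosomal protein genes, 3 rose (Rplp2, Rpl32 and Rpl38, by 0.46, 0.38 and 0.39) and 1 fell, Rpl4, by 1.19 ± 0.22 (adjusted p = 0.021). The list's median difference was 0.079, and 1.39% of all autosomal genes rose.

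Genes of peptide loading for class I molecules and of the proteasome gave 5 falls and 1 rise among 29 tested, against 5.5% and 1.39% over all autosomal genes, with a median difference of -0.026. Canx, the calnexin chaperone of the endoplasmic reticulum, was at 0.88 and 0.85 at 4 weeks and at 0.069, -0.16 and -0.13 at 12 weeks and fell by 0.93 ± 0.10 (adjusted p = 0.00613). Pdia3, a disulphide isomerase of the loading complex, fell by 0.68 ± 0.10, Erap1, which trims peptides, by 0.67 ± 0.11, B2m, the light chain of class I molecules, by 0.64 and Psma6 by 0.60. A second Erap1 probe gave a difference of 0.089. Psmb3, a core proteasome subunit, rose by 0.51 ± 0.097 (adjusted p = 0.023). Hsp90b1, the endoplasmic reticulum chaperone of the Hsp90 family, was the only call among 18 heat shock and chaperone genes and fell by 1.04. That list's median ratio was 1.01, -0.87 and 0.88 on the 3 arrays of 12 weeks and 0.21 and 0.11 at 4 weeks, so its arrays of 12 weeks lay on both sides. Its median difference was -0.075, and without the second array of 12 weeks it was 0.41, with 7 rises and 1 fall.

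Interferon response genes were mixed, with 2 falls and 1 rise among 28 tested, against 5.5% and 1.39% over all autosomal genes. The median difference was 0.067, but it was -0.11 without the second array of 12 weeks and -0.17 with arrays only centred on their median. Gbp3, a GTPase induced by interferon, was at 1.28 and 1.00 at 4 weeks and at 0.60, 0.38 and -0.0022 at 12 weeks and fell by 0.82 ± 0.17 (adjusted p = 0.0302). Ifih1, a sensor of double-stranded RNA, fell by 0.56 ± 0.13, though its second probe gave 0.0016. Stat2, which carries the type I interferon signal to the nucleus, went from -0.56 and -0.28 to 0.27, 0.21 and 0.085 and rose by 0.61 ± 0.14 (adjusted p = 0.0358).

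Among 35 tested chemokines and receptors, 3 fell and 2 rose, against 5.5% and 1.39% over all autosomal genes, and the median difference was 0.049. In the fit without the second array of 12 weeks 3 fell and 6 rose, with a median of 0.13. Besides Cxcl12 and Cxcl13, Ccr2, the receptor that brings monocytes into tissue, fell by 0.81 ± 0.17 (adjusted p = 0.0287). Cxcl14, a chemokine of epithelium and stroma, was at -0.41 and -0.30 at 4 weeks and at 0.19, 0.47 and 0.71 at 12 weeks and rose by 0.81 ± 0.17 (adjusted p = 0.0282). Ccl24, which attracts eosinophils, was at -1.44 and -0.84 at 4 weeks and at 0.28, -0.23 and 0.068 at 12 weeks, a rise of 1.18 ± 0.26 (adjusted p = 0.0341).

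At most 2 genes were called in any list of lymphoid or myeloid markers, where 5.5% of all autosomal genes fell and 1.39% rose. In B cells, Bank1 and Pou2af1 fell, by 0.81 and 0.78, among 16 tested genes whose median difference was -0.35. Of these 16, 6 fell without the second array of 12 weeks, and the median was -0.56. Among 22 T cell genes Il7r, the interleukin 7 receptor, was the only call and fell by 1.11 ± 0.13 (adjusted p = 0.00615), while the median difference was 0.19. Its ratio was 0.64 and 0.49 at 4 weeks and -0.32, -0.64 and -0.67 at 12 weeks, and its other 2 probes gave -0.046 and -0.28. In dendritic cells Siglech and Tcf4, both genes of plasmacytoid cells, fell by 0.84 and 0.67 among 21 tested, and in macrophages the scavenger receptors Msr1 and Marco fell by 0.88 and 0.82 among 19. Tnfrsf4, the OX40 receptor, rose by 0.63 among 9 genes of regulatory T cells. Prg2, an eosinophil granule protein, fell by 1.26 among 15 genes of neutrophils and eosinophils, whose median ratio was -0.53, -1.08 and 0.068 on the arrays of 12 weeks and 0.081 and -0.063 at 4 weeks. Markers of cytotoxic cells (20 tested), mast cells (9), plasma cells (15) and germinal centres (14) gave 0 calls. Without the second array of 12 weeks, 2 genes of cytotoxic cells rose and 1 of plasma cells fell. There 3 genes of dendritic cells fell, 1 of macrophages rose beside 2 falls, and the neutrophil and eosinophil list had 1 rise, 2 falls and a median difference of -0.31 in place of -0.67.

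The lists given next had at most 2 calls each, and again 5.5% of all autosomal genes fell and 1.39% rose. Ctss, the cathepsin that cleaves the invariant chain, fell by 0.67 among 12 class II genes, and C3 and Orm1 fell by 0.72 and 0.53 among 17 genes of the acute phase. Cox7a2, a respiratory chain subunit, rose by 0.69 among 45 genes of oxidative phosphorylation, and Galnt10, which starts O-glycans, rose by 0.52 among 26 glycosyltransferases. None of 7 liver antigens, 23 immediate-early genes or 14 glucocorticoid response genes was called. The arrays of 12 weeks disagreed in the stress-related lists: the median ratio of the immediate-early genes was 0.84, -0.33 and 0.79 and that of the glucocorticoid response genes 0.41, -0.79 and 0.27, with the second array below the others in each. Without it 17 immediate-early and 4 glucocorticoid response genes rose, and the median differences were 0.82 and 0.38 in place of 0.42 and 0.19. At 4 weeks the medians were -0.17 and 0.032 for the first list and -0.13 and 0.046 for the second.

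**Figure D3:**
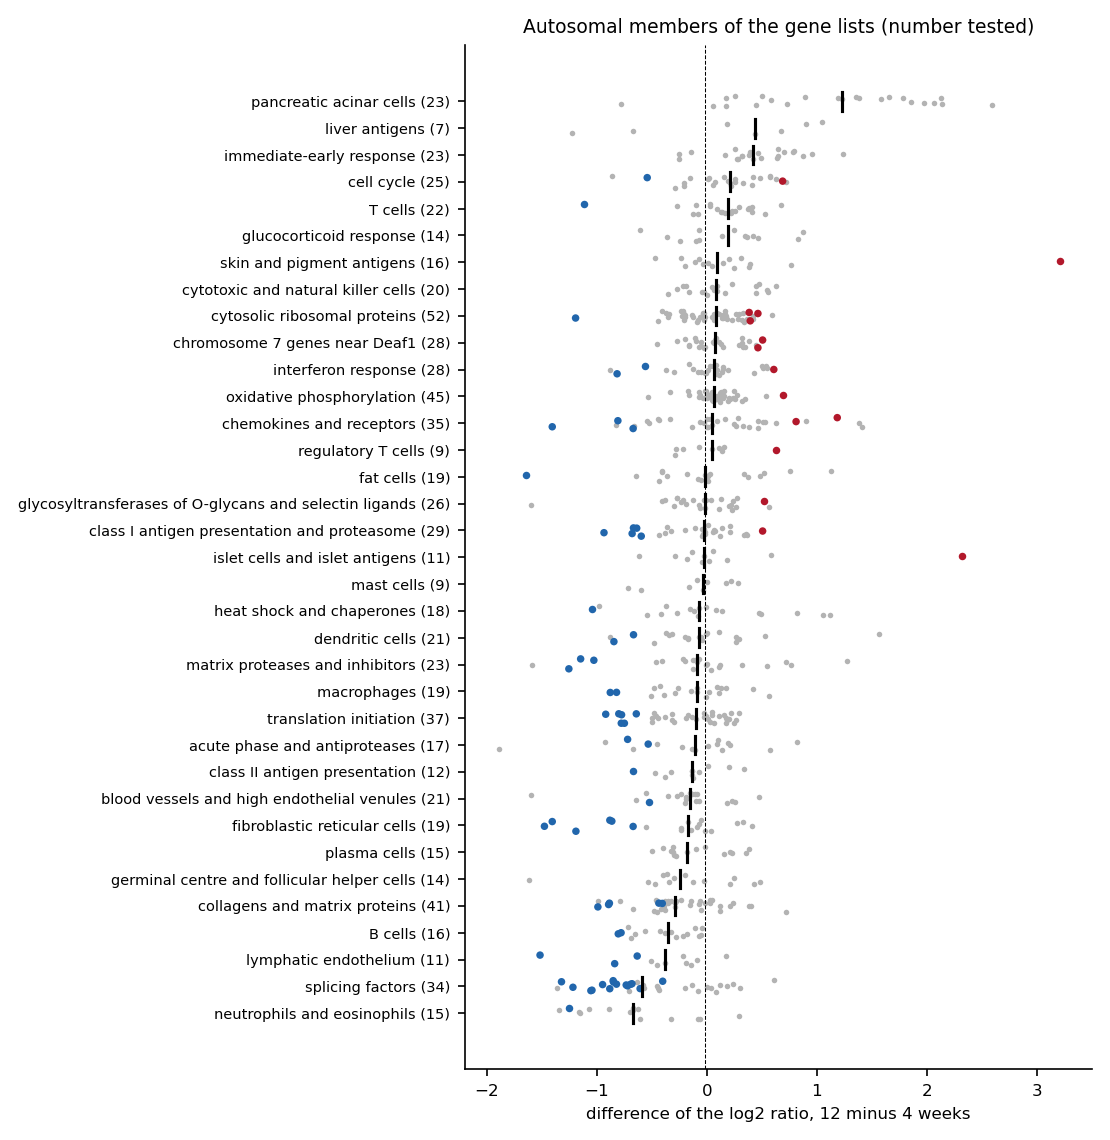
Difference of the log2 ratio, 12 minus 4 weeks (horizontal axis), for each tested autosomal gene of each list (vertical axis, with the number tested). Blue and red points are genes called lower and higher, grey points were not called, the black bar is the list's median and the dashed line the median of all autosomal genes. Splicing factors hold 15 blue points, and the acinar list has the highest median, 1.23, with no called gene.

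Digestive enzyme genes, which mark pancreatic acinar cells, call for their own account because pancreas lies beside this node. Of 23 tested, none passed, although 17 were higher at 12 weeks without overlap (16.3% of all autosomal genes were) and the median difference was 1.23. Without the first array of 4 weeks the median was 0.62. The median ratio of the list was -1.72 and -0.42 at 4 weeks and -0.21, 0.18 and 0.53 at 12 weeks, and at 30 weeks it was -4.09, 3.98 and -4.44. Both the lowest and the highest of these values were at 30 weeks. With only the 5 arrays of 4 and 12 weeks, 0 rose and 0 fell as well. Among 11 islet genes, Scg5 rose and none fell, against 1.39% rising and 5.5% falling over all autosomal genes. Fat cell genes gave 1 fall, Lpl, among 19 tested, with median ratios of -0.95 and -0.39 at 4 weeks and -0.88, -0.82 and -0.018 at 12 weeks. The part of acinar or fat tissue in the differences described here was not tested.

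**Figure D4:**
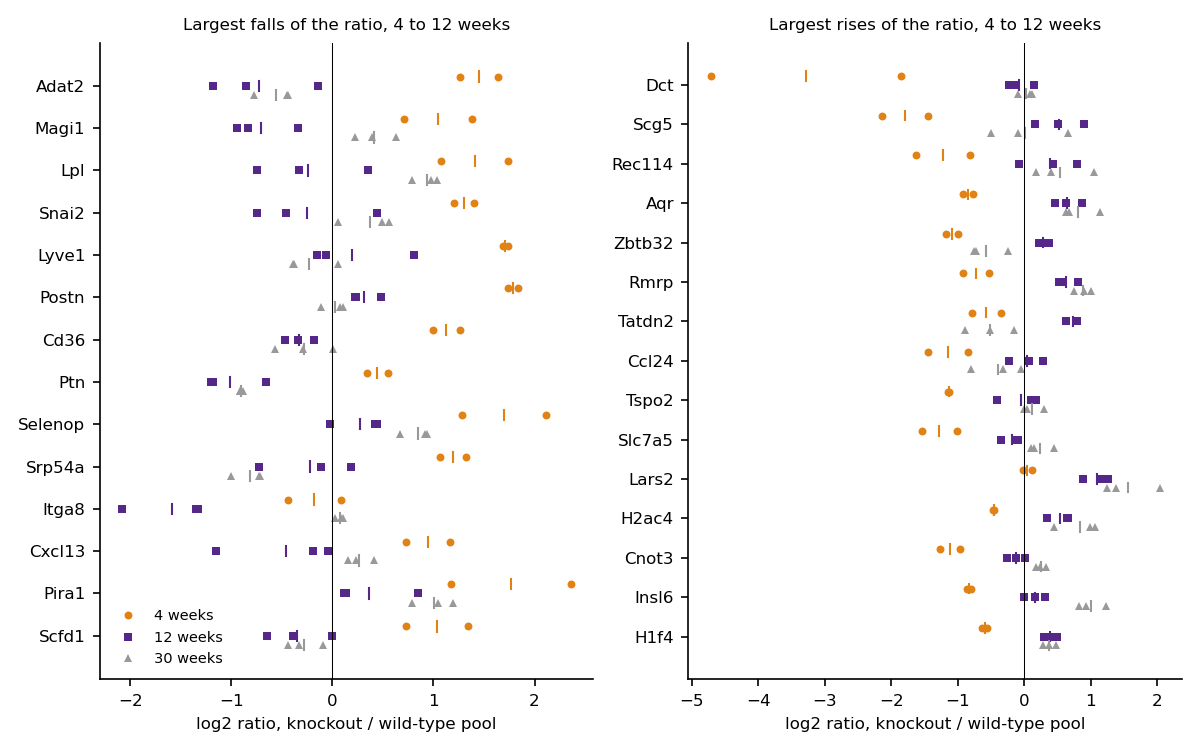
Log2 ratio of knockout over wild-type pool (horizontal axis) on each array for 14 of the 15 genes with the largest fall (left) and the 15 with the largest rise (right) that the naming rule gave. Circles are the 2 arrays of 4 weeks, squares the 3 of 12 weeks and triangles the 3 of 30 weeks, and short bars are means. In every gene shown the circles and squares do not overlap, which the rule required.

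The largest fall was that of Adat2, a subunit of the deaminase that makes inosine in tRNA anticodons. Its ratio was 1.64 and 1.26 at 4 weeks and -1.18, -0.85 and -0.14 at 12 weeks. The knockout was above the pool on both arrays of 4 weeks and below it on all arrays of 12 weeks, and also on those of 30 weeks, at -0.45, -0.44 and -0.77. The ratio fell by 2.18 ± 0.28 (adjusted p = 0.00678), with the probe at chr10:13253047-13253106 in mm8. Most of it lay in the knockout channel, which was lower at 12 weeks by -2.05 on the log2 scale, against 0.13 in the wild-type channel.

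Magi1, a scaffold protein of cell junctions, was at 1.39 and 0.71 at 4 weeks and at -0.34, -0.83 and -0.95 at 12 weeks and fell by 1.75 ± 0.24 (adjusted p = 0.00819). Its other 2 probes gave -0.63 and -0.61. Snai2, a transcription factor of mesenchymal cells, went from 1.40 and 1.20 to -0.75, 0.44 and -0.46 and fell by 1.56 ± 0.32 (adjusted p = 0.0281). The second array of 12 weeks was its highest of that age.

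Lpl, the lipase that frees fatty acids from lipoproteins, had ratios of 1.74 and 1.08 at 4 weeks and of -0.75, -0.33 and 0.36 at 12 weeks, and at 30 weeks it was back at 0.79, 0.98 and 1.03. It fell by 1.65 ± 0.31 (adjusted p = 0.0215). A second Lpl probe had a mean ratio of 0.12 at 4 weeks and gave a difference of -0.87. Cd36, a receptor for fatty acids, was at 1.26 and 0.99 and then at -0.19, -0.47 and -0.34 and fell by 1.46 ± 0.18 (adjusted p = 0.00615). In both genes the wild-type channel was higher at 12 weeks, by 1.84 and 1.23.

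Selenop, the secreted carrier of selenium, was at 2.11 and 1.28 and then at 0.44, 0.42 and -0.028 and fell by 1.42 ± 0.24 (adjusted p = 0.0161). Srp54a, a signal recognition particle subunit, fell by 1.41 ± 0.24 and Scfd1, a protein of vesicle transport, by 1.38 ± 0.23. Scfd1 probes disagreed, as its other 2 gave -0.25 and 2.26, and the mean of its probes gave a difference of 0.21. Pira1 fell by 1.40 ± 0.35 (adjusted p = 0.049), but it belongs to a family of near-identical receptor genes, so its signal may be shared.

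In Ptn and Itga8 the ratio was below equality at 12 weeks rather than back at it. Ptn, the growth factor pleiotrophin, was at 0.34 and 0.55 at 4 weeks and at -1.18, -1.20 and -0.66 at 12 weeks, and all arrays of 30 weeks were between -0.92 and -0.89. It fell by 1.46 ± 0.17 (adjusted p = 0.00615). Itga8, an integrin chain of mesenchymal and smooth muscle cells, was at -0.44 and 0.089 at 4 weeks and at -1.35, -2.08 and -1.33 at 12 weeks. It fell by 1.41 ± 0.24 (adjusted p = 0.0157), a second probe gave the same difference of -1.41, and the 3 arrays of 30 weeks lay between 0.026 and 0.10.

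The largest named rise was that of Dct, the dopachrome tautomerase of pigment cells, but at neither age were both channels well above background on all arrays. Its ratio was -4.71 and -1.85 at 4 weeks and -0.16, -0.23 and 0.15 at 12 weeks. Its knockout spots were not well above background at 4 weeks and its wild-type spots were not at 12 weeks. At 4 weeks the means of the 2 arrays put the knockout 9.73-fold below the pool, by the same measure as for Adam33. That is no minimum, since the second array alone had a ratio of -1.85. The fitted rise of 3.21 ± 0.65 (adjusted p = 0.0279) is no bound either. Without the first array of 4 weeks the fitted rise was 1.78. A second Dct probe had a mean ratio of -1.28 at 4 weeks and gave a difference of 1.18 ± 0.37. Dct was the only call among 16 genes of skin and pigment antigens, against 1.39% rising over all autosomal genes.

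Scg5, which encodes the neuroendocrine chaperone 7B2 of islets and other secretory cells, had ratios of -2.15 and -1.45 at 4 weeks and of 0.17, 0.51 and 0.90 at 12 weeks. The knockout was below the pool on both arrays of 4 weeks and above it on all arrays of 12 weeks, while the arrays of 30 weeks, from -0.50 to 0.65, lay on both sides. The ratio rose by 2.32 ± 0.35 (adjusted p = 0.012). The wild-type channel was lower at 12 weeks by -1.78 and the knockout channel higher by 0.54.

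Rec114, a meiotic recombination gene, was at -1.62 and -0.81 at 4 weeks and at 0.80, 0.43 and -0.074 at 12 weeks and rose by 1.60 ± 0.34 (adjusted p = 0.0324). Aqr, an intron-binding helicase of the spliceosome, went from -0.77 and -0.93 to 0.62, 0.46 and 0.86 and rose by 1.49 ± 0.18 (adjusted p = 0.00615). Its other 2 probes gave 0.17 and 0.11, and the mean of its probes 0.59. Zbtb32, a transcriptional repressor of lymphocytes, rose by 1.37 ± 0.16 (adjusted p = 0.00615) from -1.18 and -0.99 to 0.38, 0.22 and 0.26. Tspo2 and Slc7a5, a cholesterol-binding protein of red cell precursors and a carrier of large neutral amino acids, each rose by 1.09 ± 0.18. Slc7a5 stayed below the pool on all arrays of 12 weeks.

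Rmrp, the RNA of the mitochondrial RNA-processing ribonuclease, was at -0.93 and -0.53 at 4 weeks and at 0.81, 0.52 and 0.56 at 12 weeks and rose by 1.36 ± 0.15 (adjusted p = 0.00613). Tatdn2, a nuclease, rose by 1.30 ± 0.21, and its arrays of 30 weeks were below the pool again, from -0.88 to -0.15. Lars2, the mitochondrial leucyl-tRNA synthetase, rose by 1.05 ± 0.22 (adjusted p = 0.032) from -0.022 and 0.11 to 1.26, 1.15 and 0.88. Its level itself was far higher at 12 weeks, by 5.81 in the knockout and 4.76 in the wild-type channel on the log2 scale, which no other called gene approached. Cnot3, of the complex that shortens poly(A) tails, rose by 0.99 ± 0.13, with its other 2 probes at 0.11 and 0.029. Insl6, an insulin-like peptide of the testis, rose by 0.98 ± 0.15.

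Histone genes formed a group among the rises that was noticed only after the values were seen. Most of these replication-dependent genes end their mRNA in a stem-loop in place of a poly(A) tail and are near-identical to one another, so signals may be shared between them. Of 31 tested, 9 rose and none fell, against 1.39% rising over all autosomal genes, and the median difference was 0.36. The risers were H1f4, H1f5, H2ac4, H2ac13, H2ac15, H4c1, H4c4, H4c6 and H4c14. The median ratio of the group was -0.27 and -0.31 at 4 weeks and 0.23, 0.017 and 0.16 at 12 weeks. Its probes had a median GC content of 55%, and 9 still rose after the GC trend was removed, 11 with the scanner software's log ratio, and 0 without the first array of 4 weeks.

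H1f4, a linker histone, was at -0.56 and -0.63 at 4 weeks and at 0.49, 0.38 and 0.30 at 12 weeks and rose by 0.98 ± 0.10 (adjusted p = 0.00613), but its second probe gave -0.30. H2ac4, a core histone, rose by 1.00 ± 0.19 (adjusted p = 0.0219). The copies of histone H4 lay close together, with H4c4 at -0.52 and -0.43 at 4 weeks and at 0.40, 0.25 and 0.47 at 12 weeks, a rise of 0.84 ± 0.10 (adjusted p = 0.00615). A second H4c4 probe gave 0.93. H3f3a, a replacement histone made outside S phase and so not in the group, fell by 0.76. Cell cycle genes as a list gave 1 rise, Mcm2, by 0.69, and 1 fall, Mcm4, by 0.54, among 25 tested. The shares over all autosomal genes were 1.39% rising and 5.5% falling.

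The channels were compared as a description, after between-array scaling. In the genes whose ratio fell, the median level in the knockout channel was lower at 12 weeks by -0.42 on the log2 scale and that of the wild-type channel higher by 0.30. In the genes whose ratio rose, the wild-type channel differed by -0.67 and the knockout channel by -0.040. The larger change was in the knockout channel in 519 of the 972 genes that fell and in 68 of the 245 that rose. Over all autosomal genes it was in the knockout channel in 8808 of 17688. Their median changes were -0.0056 in the knockout channel and 0.032 in the wild-type channel.

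**Figure D5:**
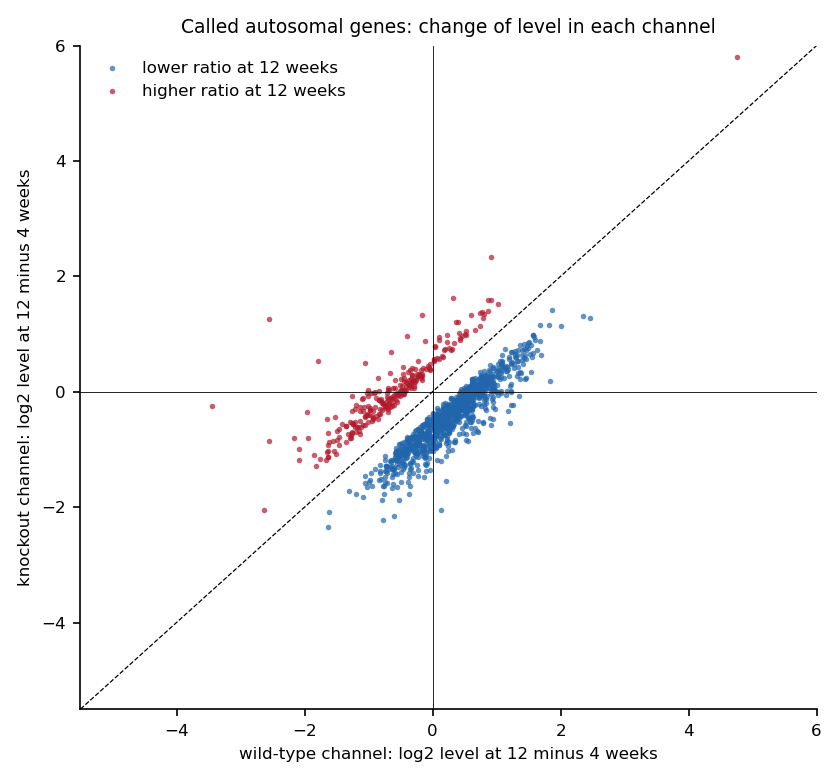
Change of the log2 level from 4 to 12 weeks in the wild-type channel (horizontal axis) and the knockout channel (vertical axis) for the 1217 called autosomal genes. The dashed line marks equal change. Genes in blue fell in ratio and lie below the line, genes in red rose and lie above it, and both groups stretch along it, so most called genes also changed in level between the arrays of the 2 ages. The point at the top right is Lars2.

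The ratios at 30 weeks were not used by the rule, although those arrays entered the estimate of the spread and the first of them shared the slide of the 12-week arrays. In the genes that fell, the median ratio at 30 weeks was 0.036, with 0.075, 0.011 and 0.047 on its arrays, and 856 of 972 (88.1%) had a mean nearer to that of 12 weeks than to that of 4 weeks. In those that rose the median was 0.14, and 220 of 245 (89.8%) were nearer to 12 weeks. The share was 66.3% over all autosomal genes and 77.7% over the members. These sets are not alike, since called genes were chosen for their difference between 4 and 12 weeks. Of the falls, 902 were farther from equality at 4 weeks than at 12 weeks, as were 198 of the rises and 11166 of all 17688 autosomal genes tested. For most such genes a ratio near equality at 30 weeks lies nearer to 12 weeks, so the higher shares are a description only. Among the named genes of largest change, Lpl, Magi1, Itga8 and Cxcl13 of the falls, and Zbtb32 and Tatdn2 of the rises, were nearer to 4 weeks, as the plot of the leading genes by array shows. Scanner and software were the same at 12 and 30 weeks and another at 4 weeks, and their part in this nearness was not tested.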

How the data were processed

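Nodes of 8 knockout mice were measured on 2-colour Agilent arrays, each against a wild-type pool. Per the file headers, Feature Extraction versions 9.5.3.1 (4 weeks) and 10.2.1.3 (12 and 30 weeks) made the deposited intensity of each spot and channel, its background intensity, its quality flags and a log10 ratio of processed signals. The authors' deposited value table is on a log2 scale and equals the log2 of processed red over green, uncentred. Both ratios served only as alternatives. Mean signals were corrected with normexp (offset 50) and normalised by loess within arrays in limma 3.58.1 (R 4.3.3). Flagged outlier spots were left out, spots averaged per probe, and 27464 probes kept: those that all arrays of an age showed well above background in 1 given channel. The brightest probe stood for a gene, giving 18410 genes. A fit with 1 mean per age over all 8 arrays gave the ratios and their difference, two-sided, adjusted over all genes. Channel levels come from between-array quantile scaling of average intensity.

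Of 41174 probes, 24375 were named through an accession in RefSeq (GRCm38.p6), 6301 kept a current symbol, 2426 were updated from a synonym and 8072 kept the file's name. The 597 X, 6 Y and 112 unplaced genes were fitted but are not members. Overlap could not be judged for 6 genes. The members and lists were chosen with earlier results of these data known. Named are Deaf1, Aire and Eif4g3, the 15 largest falls and rises among called members with a gene name, up to 4 called genes of each list with at least 3 calls or with at least 0.25 of its measured genes called, and genes called at both ages with opposite sign. Further called genes of lists are named to account for each count. Some results that the rule or lists gave are not reported here. The fit was tested on simulated data. Whether arrays of an age share 1 pool is not given in the sources used here. Precision is limited by 2 and 3 arrays per age. Figures were drawn with matplotlib.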

Additional observations from a re-analysis of the deposited data

Results flagged for a closer look

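The difference of the knockout effect between 12 and 4 weeks passed its own test in 1217 autosomal genes (limma, adjusted p under 0.05), and is listed here with the genes that passed at both ages with opposite sign. That group holds 24 genes, 22 of them with a name. Among those named, the difference was positive in Aqr (1.49), Rmrp (1.36), Tatdn2 (1.30), Nubpl (0.895), Ccrl2 (0.642) and the histone genes H1f4 (0.98), H4c1 (0.775), H4c4 (0.843), H4c6 (0.842) and H4c14 (0.757). It was negative in Ptn (-1.46), Capza2 (-1.36), Zfand6 (-1.17), Rspo1 (-1.14), Il7r (-1.11), Rab8b (-0.901), Scp2 (-0.84), Tial1 (-0.839), Eed (-0.82), Klf7 (-0.721), Enpep (-0.717) and Arl8b (-0.66).

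Capza2, a subunit that caps actin filaments, had ratios of 1.01 and 0.99 at 4 weeks and of -0.52, -0.27 and -0.29 at 12 weeks, and all arrays of 30 weeks were between -0.81 and -0.60. Zfand6, a zinc finger protein, was at 0.81 and 0.68 at 4 weeks, at -0.55, -0.43 and -0.27 at 12 weeks and between -1.08 and -1.01 at 30 weeks. Rspo1, a ligand that strengthens Wnt signals, was at 0.42 and 0.57 and then at -0.88, -0.84 and -0.21, with arrays of 30 weeks between -0.22 and -0.015. Eed, a core subunit of the Polycomb complex that methylates histone H3, was at 0.34 and 0.56 and then at -0.50, -0.32 and -0.29. Nubpl, an assembly factor of respiratory complex I, went the other way, from -0.59 and -0.21 to 0.67, 0.55 and 0.26. In these 5 genes all arrays of an age had the same sign. Other probes did not always give the same: both further probes of Rab8b gave differences near 0 or above it, 0.0023 and 0.19, and 1 of the 2 of Arl8b gave 0.17. The second probe of H1f4 gave -0.30, that of Tial1 -0.080 with overlapping ratios and that of Capza2 -0.28. The other 2 probes of Il7r had mean ratios of -0.041 and -0.077 at 4 weeks, below the pool. The further probes of Aqr, Ccrl2, H4c4, Klf7 and Nubpl kept the direction.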

How the results depend on the processing

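All 80 named calls kept their direction in every alternative run, except Scfd1, whose difference was 0.21 with the mean of its probes. Of the 80, 72 had a value when only probes well above background on all 5 arrays were kept. In runs that only left out arrays the direction was fixed in advance, because the ratios of called genes did not overlap between the ages. Aire, not called, turned to 0.0319 with the scanner software's log ratio. The number of genes that rose was 245 as reported, 775 with that log ratio, 414 with offset 10, 2 with arrays only centred, 23 with the 5 arrays of 4 and 12 weeks and 1584 with slide as a random block. The number that fell was 972 as reported, 39 with arrays only centred, 511 with the authors' value table, 579 with the mean of a gene's probes, 151 with the 5 arrays and 2693 with slide as a random block, whose correlation was estimated at -0.259. As a fixed block, slide leaves the difference without an estimate. Leaving out 1 array at a time gave 1 to 536 rises and 0 to 1168 falls, with both lowest values without the first array of 4 weeks. Without the second array of 12 weeks and with no array of 30 weeks, chosen after seeing the data, 258 rose and 598 fell.

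Replicate numbers were tried as a block. Deviations of same-numbered arrays correlated at 0.0486 and -0.0769 between 4 and 12 weeks, at 0.24 and 0.166 between 4 and 30 weeks and from -0.0277 to 0.0192 between 12 and 30 weeks. Not every pair was over 0.1, so the numbers were not taken to pair the samples. With the replicate block 39 rose and 303 fell, and with a GC correction too, 37 and 292. Signal limits Dct and Adam33, where 1 channel was dim on both 4-week arrays. It also limits Pira1, Ogn, Mmp8 and Enpep, whose wild-type channel was clear of background on just 1 of those arrays. The same held for the knockout channel of Tatdn2 and for both channels of Cxcl14. All of these genes lacked a value in the run that kept only probes clear of background in both channels.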
